A study of Mus musculus with 31 samples.

Results

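Genes that fold proteins in the endoplasmic reticulum (ER), remove misfolded ones and signal ER stress were followed in 3 fat depots of mice moved into the cold. Members were chosen by a list of 35 symbols. A member was the RefSeq transcript row with counts for its symbol, and 31 of the 35 had such a row among 17334 features. Hspa5, Canx, Manf and Sel1l are not analysed here. Each tissue came from male C57BL/6J mice aged 8 weeks that had first spent 8 days at thermoneutrality, a warmth at which mice need little extra heat production. Mice of day 2 and day 4 were then kept at 4 °C for that many days, and mice of day 0 were killed without cold exposure. The depots were interscapular brown fat (iBAT; 3 libraries at day 0, 4 at day 2 and 3 at day 4), inguinal white fat (iWAT; 4, 3 and 5) and epididymal white fat (eWAT; 3, 3 and 3). A library is called by its depot and the number in its label, as in eWAT551. The labels do not say whether a number is an animal, so p-values measure the spread between these libraries, which may be partly technical.

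Proteins that a cell secretes or puts in its membranes are threaded into the ER, folded there by chaperones and joined by disulfide bonds. When unfolded proteins build up, the sensors IRE1 (Ern1), PERK (Eif2ak3) and ATF6 signal to the nucleus: IRE1 splices Xbp1 mRNA, PERK raises translation of ATF4, and ATF6 is cut to release a transcription factor. Together these raise chaperones and the ER-associated degradation machinery, and ATF4 also turns on genes of amino acid supply and cell death. In fat, ER function bears on the secretion of adipokines and on lipid handling.

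Promoter sequences show which of these genes carry the letters read by the stress factors, and are given because the results turn on chaperones and ATF4 targets. RefSeq promoters of build GRCm38.p6, 250 bases before to 50 after the gene start, were found for 28 of the 31 measured genes. The ER stress element ERSE, read by ATF6 with NF-Y, was searched on both strands as CCAAT and CCACG with 9 bases of any kind between them. It was in 39 of 32851 promoters (0.119%) and in those of 6 measured members. The composite C/EBP-ATF core, to which ATF4 binds with C/EBP partners, was searched as TGATGNAA, and 1304 promoters held it (3.97%), among them those of Asns, Chac1, Herpud1 and Trib3. The Trib3 match lies past the gene start and is not printed. The related ERSE-II, ATTGG and CCACG with 1 base between them, was in 12 promoters (0.0365%), among them those of Dnajb11 (past the gene start, not printed) and Herpud1. The motifs were searched separately, and no search excluded letters used by another. In the lines that follow, capitals mark the match and the sequence is that of the gene's own strand, so a match on the opposite strand reads as its reverse complement.
Calr (ERSE, chr8:84847067-84847101, minus strand): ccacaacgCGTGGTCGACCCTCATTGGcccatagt
Creld2 (ERSE, chr15:88819512-88819546, plus strand): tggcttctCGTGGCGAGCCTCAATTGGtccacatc
Dnajc3 (ERSE, chr14:118937819-118937853, plus strand): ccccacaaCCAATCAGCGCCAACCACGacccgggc
Pdia6 (ERSE, chr12:17266483-17266517, plus strand): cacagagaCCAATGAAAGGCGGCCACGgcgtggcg
Hsp90b1 (ERSE nearer to the start, chr10:86705525-86705559, minus strand): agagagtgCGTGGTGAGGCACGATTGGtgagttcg
Hsp90b1 (ERSE farther from the start, chr10:86705630-86705664, minus strand): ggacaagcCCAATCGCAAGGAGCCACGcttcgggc
Herpud1 (ERSE-II, chr8:94386369-94386395, plus strand): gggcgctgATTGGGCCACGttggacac
Herpud1 (C/EBP-ATF core, chr8:94386309-94386332, plus strand): acggcgggTTGCATCAgcccgcac
Asns (C/EBP-ATF core, chr6:7693217-7693240, minus strand): cagccacaTGATGAAActtcccgc
Chac1 (C/EBP-ATF core, chr2:119351041-119351064, plus strand): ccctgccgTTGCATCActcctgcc
The sixth ERSE gene, Syvn1, had 10 counts in all libraries together and its site is not shown. A match is a run of letters, not a site shown to be bound, and the windows end 250 bases before the start.

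Depth was 1502823 to 5527239 counts per library. Fat markers were high in every depot: the 5 adipocyte genes with a row summed to between 8349 and 50063 CPM per library. CPM are read counts brought to a common library size, here after scaling by the trimmed mean of M-values (TMM). That holds for single genes and for sums of members. Sums of marker genes, here and later, are CPM of the plain total count, without that scaling. Some rows gave almost no counts for genes that define fat or its stroma, such as Pparg and Dcn, each with at most 1 count in any library. A row near 0 therefore does not show that a gene is silent. The 5 brown adipocyte genes with a row summed to 7713 to 34423 CPM in iBAT, 104 to 9588 CPM in iWAT and at most 388 CPM in eWAT. The limit of near-empty rows bears on Dnajb11, an ER co-chaperone with 1 count in all, on Syvn1, a ubiquitin ligase of ER-associated degradation, and on Ern1 and Ddit3 with 137 and 122 counts in all. In bulk tissue, fewer cells of a type and less RNA per cell cannot be told apart. Muscle RNA was present in iBAT, where 13 muscle genes summed to 4280 to 60050 CPM. A low-count filter left 27 members to test in iBAT, 26 in iWAT, 28 in eWAT and 28 in the joint fit of all 31 libraries.

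Levels between genes were compared per kilobase of transcript at day 0. In iBAT the highest members were Herpud1, a membrane protein of ER-associated degradation, at 172 CPM per kilobase, the stress transcription factor Atf4 at 142, and the lectin chaperone Calr at 131. In iWAT the ER form of HSP90, Hsp90b1, led at 322 CPM per kilobase, followed by Atf4 at 121 and Calr at 117. In eWAT the disulfide isomerase P4hb led at 195 CPM per kilobase, followed by Hsp90b1 at 170 and Calr at 159. The Hsp90b1 level there rested on eWAT518 and was 52.5 CPM per kilobase without it. The sensors were far lower in iBAT, iWAT and eWAT. Eif2ak3 stood at 3.30, 4.61 and 3.77 CPM per kilobase and Atf6 at 7.12, 5.25 and 6.44. Summed over all 31 members, CPM averaged 2989 ± 182 in iBAT (SD, n = 3), 3204 ± 583 in iWAT (n = 4) and 3432 ± 235 in eWAT (n = 3) at day 0.

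Between depots at day 0, edgeR called 2 members. They were 2 of the 4 tested targets of PERK and ATF4, and both were higher in iBAT. A gene is called when its p-value in edgeR's two-sided quasi-likelihood test, adjusted over all genes tested (Benjamini-Hochberg), is under 0.05. In iBAT against iWAT, 2 of 28 members were called, Chac1 and Trib3, beside 17.9% of all 11041 genes tested (8.12% higher and 9.77% lower). Another 2 members had an unadjusted p under 0.05, which made 14.3% of members beside 32.0% of all genes, and DESeq2 called 3. In iBAT against eWAT 1 member was called, Chac1, beside 10.3% of all genes (5.07% higher and 5.21% lower), and DESeq2 called 2. In iWAT against eWAT edgeR called none of 28 members, beside 7.82% of all genes (5.02% higher and 2.8% lower). There 3 members had an unadjusted p under 0.05, which was 10.7% beside 21.5% of all genes, and DESeq2 called 0. In each comparison the share of members called lay below that of all genes.

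Chac1 (chr2:119351242-119354326, plus strand) encodes an enzyme that degrades glutathione and is a target of ATF4. At day 0 it had 20.4, 5.76 and 15.1 CPM in iBAT, against 0.563, 0.731, 0.593 and 1.77 CPM in iWAT and 3.00, 1.92 and 3.67 CPM in eWAT. Every iBAT library lay above every library of both white depots. The difference of iBAT from iWAT was 3.83 on the log2 scale (SE 0.66, edgeR adjusted p = 1.54e-04), and that from eWAT was 2.25 (SE 0.66, edgeR adjusted p = 0.0277). Depth was small behind these values: 19 to 51 counts per library in iBAT, against 1 to 6 in iWAT and 9 to 15 in eWAT. The call against iWAT held under every alternative and with each library left out. That against eWAT was lost with the plain library size (edgeR adjusted p = 0.0817), with no low-count filter (0.057) and without iBAT516 (0.138), iBAT518 (0.0821), eWAT516 (0.0915), eWAT517 (0.113) or eWAT518 (0.0542).
The stretch of 250 bases before the Chac1 start (GRCm38.p6, chr2:119350992-119351241, plus strand), with the C/EBP-ATF core in capitals, reads as follows.
Chac1: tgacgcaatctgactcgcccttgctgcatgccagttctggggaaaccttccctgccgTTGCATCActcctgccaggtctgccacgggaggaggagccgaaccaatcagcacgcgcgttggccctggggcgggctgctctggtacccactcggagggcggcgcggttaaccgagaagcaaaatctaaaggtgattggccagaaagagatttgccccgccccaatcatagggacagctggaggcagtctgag

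Trib3 (chr2:152337425-152344060) encodes a pseudokinase induced by ATF4. At day 0 it had 183, 83.6 and 69.1 CPM in iBAT, against 48.1, 19.7, 52.2 and 22.7 CPM in iWAT and 35.0, 51.8 and 52.6 CPM in eWAT. Again every iBAT library lay above those of the white depots. The difference from iWAT was 1.65 on the log2 scale (SE 0.55, edgeR adjusted p = 0.0374). That from eWAT was 1.27 (SE 0.60, edgeR adjusted p = 0.20). The call of Trib3 against iWAT was lost with no low-count filter (edgeR adjusted p = 0.0532), with the plain library size (0.0669), with the library score described further on as a covariate (0.0655), and without iBAT516 (0.256), iBAT517 (0.0521), iWAT517 (0.106) or iWAT522 (0.0794). Asns, asparagine synthetase and another ATF4 target, had a difference of 1.502 from iWAT (SE 1.07, edgeR adjusted p = 0.34), and of 3.04 without iWAT522 (edgeR adjusted p = 0.06). Ppp1r15a, which helps reverse the PERK signal, had -0.39 (SE 0.55, edgeR adjusted p = 0.652). Other markers moved with this contrast. Muscle genes summed to 22426, 19147 and 60050 CPM in iBAT516, iBAT517 and iBAT518, against 43.9 to 3856 CPM in iWAT and 39.2 to 1419 CPM in eWAT at day 0. The 12 immediate early genes, which respond fast to handling and stimuli, summed to 1787, 3167 and 1026 CPM in the same iBAT libraries, against 526 to 1085 CPM in iWAT and 557 to 892 CPM in eWAT. The 12 lymphocyte genes summed to 9.85 to 26.4 CPM in iBAT, against 2520 to 3940 CPM in iWAT and 18.0 to 33.0 CPM in eWAT. The 8 macrophage genes summed to 63.7 to 112 CPM in iBAT, against 195 to 699 CPM in iWAT and 166 to 334 CPM in eWAT. Their part in the differences of Chac1 and Trib3 was not tested.

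**Figure D1:**
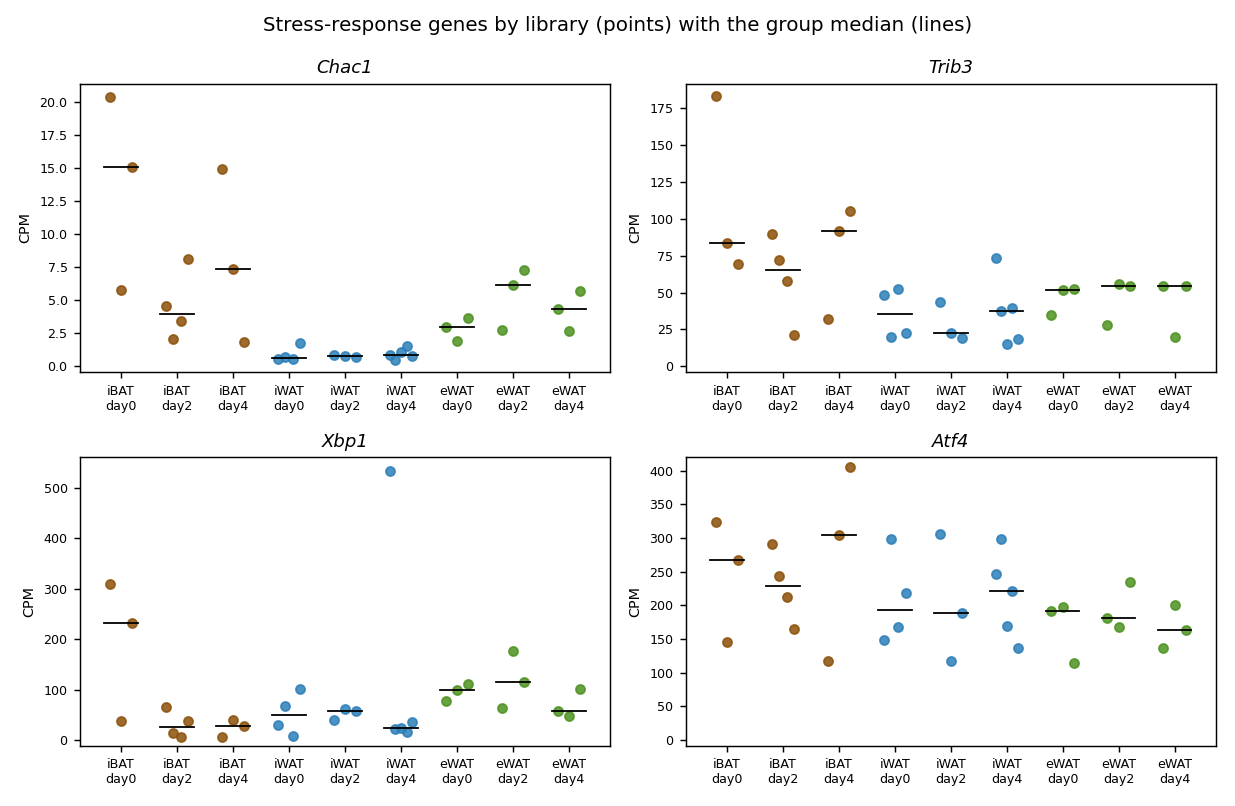
Level in CPM (linear axes) of Chac1, Trib3, Xbp1 and Atf4 in each library (points) of the 9 groups of depot and day, with the group median as a line. The Chac1 median is highest in iBAT at day 0, the Trib3 medians of the 3 iBAT groups lie above those of all white groups, and Xbp1 in iWAT at day 4 has a single library at 533.8 CPM.

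The other roles showed no call between depots in edgeR. Among the disulfide enzymes, Pdia4 was 17.9, 25.7 and 21.4 CPM in iBAT at day 0, against 45.3, 26.1, 53.4 and 38.4 CPM in iWAT and 45.4, 49.2 and 42.8 CPM in eWAT. All iBAT libraries lay below all white ones. The edgeR differences were -0.91 from iWAT (SE 0.39, adjusted p = 0.113) and -1.08 from eWAT (SE 0.42, adjusted p = 0.102). DESeq2 called Pdia4 lower in both, with adjusted p = 0.0281 and 0.0267, as did edgeR with the plain library size (adjusted p = 0.0269 and 0.0161). P4hb, a disulfide isomerase, had 153, 392 and 237 CPM in iBAT, against 768, 562 and 345 CPM in eWAT. The groups overlapped, and the difference was -1.10 (SE 0.48, edgeR adjusted p = 0.154). It was called only with the plain library size (edgeR adjusted p = 0.0407).
Scaling matters in these contrasts because it moves all genes together. The plain library size lowered the median log2 difference of all genes by 0.35 against iWAT and 0.435 against eWAT relative to TMM. It gave 580 genes called higher and 1522 lower in iBAT against iWAT, where TMM gave 897 and 1079. In iBAT against eWAT it gave 413 higher and 1015 lower, where TMM gave 560 and 575.

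Cold exposure gave no called change in any member. In the 9 comparisons of days within a depot, edgeR called 0 members. The background was 0.157% of 8270 genes (0.133% higher and 0.0242% lower) for day 2 against day 0 in iBAT, and 0.0% in the other 8. At an unadjusted p under 0.05 there were 9 higher and 5 lower values over these 9 comparisons. That was 0% to 14.8% of the members tested in a comparison, beside 1.06% to 12.4% of all genes. DESeq2 called 1 member, Xbp1 in iBAT at day 2. In the 6 comparisons of the change between depots edgeR and DESeq2 called 0 members, beside 0.0% of 11041 genes with edgeR. At an unadjusted p under 0.05 there were 2 higher and 12 lower values, which was 3.57% to 14.3% of the members in a comparison, beside 4.03% to 10.4% of all genes. The median log2 change of the members against day 0 was -0.10 at day 2 and -0.34 at day 4 in iBAT, 0.14 and 0.15 in iWAT, and 0.08 and 0.26 in eWAT. The same median over all genes lay between -0.08 and 0.01.

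**Figure D2:**
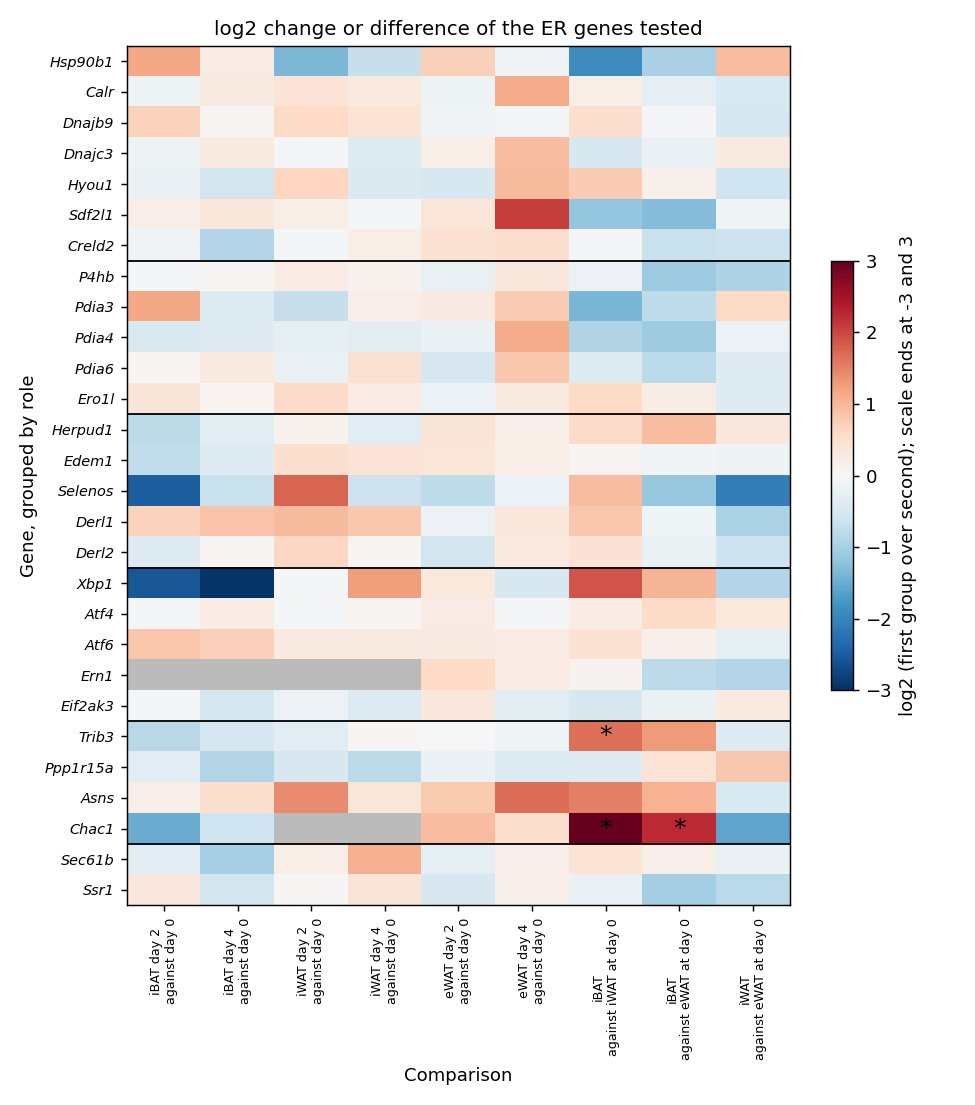
Fitted log2 change or difference (colour, first group over second) of the members tested, grouped by role, in the 6 cold comparisons and the 3 depot comparisons at day 0. Grey cells were not tested in that fit, and an asterisk marks an edgeR adjusted p under 0.05, which occurs for Chac1 and Trib3 between depots and nowhere in the cold comparisons.

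No change of a folding chaperone was called by edgeR in any depot. Calr, the calcium-binding lectin chaperone, was 300, 234 and 322 CPM at day 0 in iBAT, 448, 347, 106 and 93.1 at day 2, and 274, 348 and 349 at day 4. All 3 days overlapped. The ER chaperone Hyou1, an exchange factor for BiP, was low in iBAT at 0.0 to 14.5 CPM, and in iBAT548 it had no count. In iWAT the changes of the 7 chaperones lay between -1.35 and 0.65 on the log2 scale at day 2 and between -0.68 and 0.41 at day 4. Those of the 5 disulfide enzymes lay between -0.68 and 0.56 and between -0.32 and 0.46 there, and no change of either role was called.

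In eWAT at day 4 the changes of several chaperones and of the disulfide enzyme Pdia4 rested largely on 1 library, eWAT551. This did not hold for every chaperone: Hsp90b1 had 709, 543 and 135 CPM in eWAT548, eWAT551 and eWAT553. Sdf2l1, a component of ER chaperone complexes, had 8.02, 79.0 and 18.2 CPM at day 4, against 12.2, 7.25 and 5.14 CPM at day 0. The highest value was that of eWAT551, and the lowest day 4 library lay inside the day 0 range. The change was 2.06 (SE 0.76, edgeR adjusted p = 1.00, unadjusted p = 0.0222), and it was 0.67 without eWAT551.
Pdia4 had 59.6, 192 and 53.5 CPM at day 4, against 45.4, 49.2 and 42.8 CPM at day 0. All day 4 libraries lay above those of day 0, and eWAT551 far above. The change was 1.12 (SE 0.51, edgeR adjusted p = 1.00), and 0.29 without eWAT551. Calr had 477, 1316 and 511 CPM, against 434, 381 and 228 CPM, again without overlap. The change was 1.12 (SE 0.59, edgeR adjusted p = 1.00), and 0.50 without eWAT551. The change of Hyou1 was 0.95 with that library and -0.33 without it. That of Creld2, an ER stress-induced protein, was 0.51 and -0.63.

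The library eWAT551 was described further, with no test, since it was singled out by its values. It was the highest of the 9 eWAT libraries for 10 of 28 members, against 14.7% of all 10043 features. These were 5 of 7 chaperones (Calr, Dnajc3, Hyou1, Sdf2l1 and Creld2), 4 of 5 disulfide enzymes (P4hb, Pdia4, Pdia6 and Ero1l) and Sec61b, a translocon subunit. Sdf2l1 was 8.09 times the median of the other 8 libraries, Hyou1 5.36 times and Pdia4 4.05 times. None of 5 sensors and transcription factors, 4 targets of PERK and ATF4 and 5 degradation genes was highest there. Xbp1 at 48.0 CPM and Trib3 at 19.98 CPM were the lowest of the 9. Of the 5 tested genes printed earlier for their ERSE letters, 4 were highest in eWAT551: Calr, Creld2, Dnajc3 and Pdia6. Hsp90b1, with both ERSE matches, was not: it had 543 CPM in eWAT551, and 127 to 1355 CPM in the others. Sdf2l1, Pdia4, P4hb, Ero1l and Sec61b, with no ERSE match found, were also highest there, and Hyou1 had no promoter to search. The library was chosen by these values, so the count does not test a link to the letters.
Of other ER lists, 13 of 20 translocon, signal peptidase and N-glycosylation genes and 11 of 23 further folding enzymes were highest in eWAT551, and 2 of 16 further degradation genes, 0 of 7 further sensors, 3 of 15 further ATF4 targets and 3 of 15 heat shock proteins. Epididymal genes went in different directions in this library. Adam7 had 1976 CPM in eWAT551 and at most 110 CPM in the other 8, and Lcn5 had 312 CPM and at most 13.4 CPM. Spink8 had 3005 CPM in eWAT551 but 4696 CPM in eWAT532, and Crisp1 had 183 CPM but 2329 CPM in eWAT516. The 11 epididymis and sperm genes summed to 13938 CPM in eWAT551, 23200 in eWAT516 and 39181 in eWAT532. The libraries eWAT516 and eWAT532 were the highest for 1 and 0 members. There Akr1b7, at 61715 and 102990 counts, made up most of the sum, against 15 counts in eWAT551. The TMM-scaled levels of Akr1b7 were 12353, 25960 and 3.66 CPM in eWAT516, eWAT532 and eWAT551. The order of the sums rested on this gene, and without it the sum of eWAT551 would be above both others. The 8 plasma cell genes summed to 330 CPM in eWAT551 and 52.6 to 114 CPM in the others. Derl3, at 164 CPM against at most 9.05 CPM, and Sdc1, at 129 CPM against at most 50.4 CPM, made up most of that sum. Derl3 is also in the list of further degradation genes counted above, so it is not a marker separate from the ER lists. Jchain, Irf4, Pou2af1, Tnfrsf17 and Prdm1 lay within the range of the other libraries, and Mzb1 was at 0 in eWAT. The 5 adipocyte genes summed to 14088 CPM in eWAT551, the lowest of the 9, and to 17976 to 50063 CPM in the others. The lymphocyte sum was also lowest there, at 13.5 CPM against 16.6 to 57.2 CPM. Their part in the chaperone values was not tested.

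**Figure D3:**
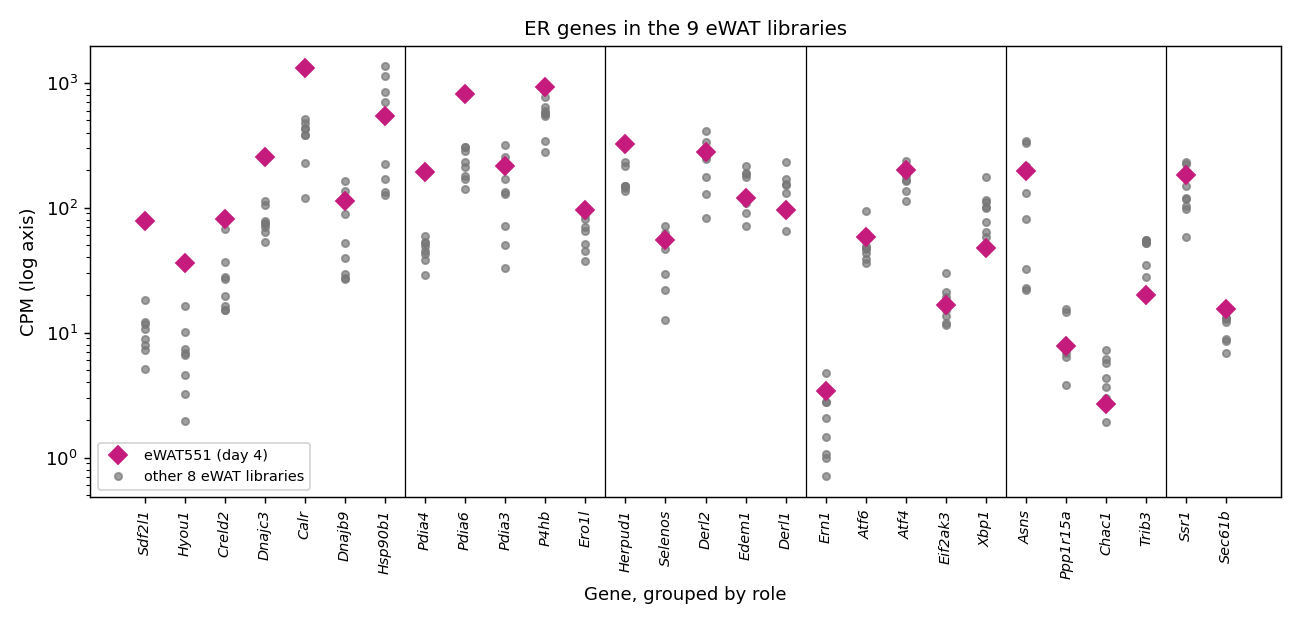
Level in CPM (log axis) of the 28 tested members in eWAT551 (diamonds) and the other 8 eWAT libraries (circles), grouped by role in the order chaperones, disulfide enzymes, degradation, sensors and transcription factors, PERK and ATF4 targets, and translocation. The diamonds stand above all circles for 5 chaperones and 4 disulfide enzymes, and below all circles for Xbp1 and Trib3.

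Of the degradation genes, Derl1, a channel-forming protein that helps pull misfolded proteins out of the ER, had positive changes in iBAT and iWAT. In iWAT it had 61.3, 55.8, 59.9 and 83.0 CPM at day 0, 133, 139 and 115 at day 2, and 187, 88.6, 110, 132 and 51.5 at day 4. The day 2 libraries all lay above those of day 0, and at day 4 iWAT555 lay below them. The change was 0.96 at day 2 (SE 0.40, edgeR adjusted p = 0.454) and 0.81 at day 4 (SE 0.36, edgeR adjusted p = 0.582). In iBAT it had 104, 105 and 135 CPM at day 0, 218, 161, 195 and 125 at day 2, and 137, 208 and 239 at day 4. The day 4 libraries lay above those of day 0, the lowest by little, with a change of 0.84 (SE 0.34, edgeR adjusted p = 0.62).
Edem1, a lectin that directs misfolded glycoproteins to degradation, had 94.3, 69.1, 53.0 and 53.7 CPM in iBAT at day 2, against 141, 110 and 106 CPM at day 0. The days did not overlap, and the change was -0.74 (SE 0.32, edgeR adjusted p = 0.378). Herpud1 had 187, 275, 154 and 134 CPM in iBAT at day 2, against 433, 278 and 297 CPM at day 0, a change of -0.77 (SE 0.34, edgeR adjusted p = 0.388). Its highest day 2 library lay just below the lowest of day 0. Selenos, a selenoprotein of the same machinery, was erratic: it spanned 0.268 to 61.5 CPM over the iWAT libraries.
Of the translocation genes, Sec61b had 15.0, 17.7, 42.1, 12.9 and 17.6 CPM in iWAT at day 4, against 8.72, 13.2, 6.53 and 11.5 CPM at day 0. The change was 1.07 (SE 0.47, edgeR adjusted p = 0.57). Ssr1, a subunit of the translocon-associated complex, had changes between -0.54 and 0.39 in the 6 cold comparisons.

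Of the transcription factors, Xbp1 (chr11:5520641-5525993) came nearest to a call. In iBAT it had 310, 37.6 and 233 CPM at day 0, 65.1, 15.1, 5.83 and 37.4 at day 2, and 6.65, 39.2 and 27.1 at day 4. Of the day 0 libraries, 2 lay far above all cold ones, and iBAT517 lay within the cold range. The change was -2.57 at day 2 (SE 0.85, edgeR adjusted p = 0.252) and -2.95 at day 4 (SE 0.95, edgeR adjusted p = 0.52). DESeq2 gave adjusted p = 0.0488 at day 2 and 0.075 at day 4. With the library score as a covariate the changes were -1.68 and -2.66. Over the edgeR alternatives and left-out libraries the adjusted p stayed at 0.112 or above at day 2. Immediate early genes in iBAT were also highest at day 0, at 1026 to 3167, 274 to 597 and 199 to 378 CPM by day. With some overlap, so were muscle genes, at 19147 to 60050, 6870 to 11437 and 4280 to 23984 CPM, and fibroblast genes, at 931 to 1402, 675 to 1073 and 430 to 808 CPM. Plasma cell genes summed to 70.4 to 566, 8.04 to 43.1 and 5.84 to 86.6 CPM on these days, and endothelial genes to 652 to 1134, 296 to 630 and 198 to 780 CPM. Within day 0 the order of libraries differed. The library lowest in Xbp1, iBAT517, had the highest immediate early, plasma cell and fibroblast sums, at 3167, 566 and 1402 CPM. Its muscle sum was the lowest, at 19147 CPM, and its endothelial sum, at 654 CPM, lay between the others. The part of these markers in the Xbp1 values was not tested.
In iWAT, Xbp1 had 533.8 CPM in iWAT548 and 16.6 to 35.5 CPM in the other 4 libraries of day 4, against 8.31 to 102 CPM at day 0. The change at day 4 was 1.25 (SE 0.98, edgeR adjusted p = 0.823), and -1.08 without iWAT548. The difference of the day 4 change between iBAT and iWAT was -4.28 (SE 1.42, edgeR adjusted p = 0.691), and -1.93 without iWAT548. In eWAT, Xbp1 had 77.3, 98.7 and 112 CPM at day 0, 64.3, 177 and 115 at day 2, and 58.7, 48.0 and 102 at day 4, and the days overlapped. Counts per transcript row do not separate the spliced from the unspliced Xbp1 mRNA.

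Atf4 was among the steadier members. In iBAT it had 323, 145 and 267 CPM at day 0, 291, 244, 213 and 165 at day 2, and 118, 305 and 405 at day 4. In iWAT it spanned 148 to 298, 118 to 306 and 137 to 299 CPM on the 3 days, and in eWAT 114 to 197, 168 to 235 and 136 to 200 CPM. The days overlapped in every depot, and the 6 changes lay between -0.06 and 0.24 on the log2 scale, with SE of 0.36 to 0.45. ATF4 is controlled largely at translation, which RNA levels do not show. Atf6 had 75.1, 117, 92.3 and 64.6 CPM in iBAT at day 2, against 55.9, 52.4 and 46.6 CPM at day 0. The days did not overlap, and the change was 0.83 (SE 0.32, edgeR adjusted p = 0.332). Eif2ak3 had changes between -0.52 and 0.33 over the 6 cold comparisons, none of them called. Ern1 was tested in eWAT and the joint fit only, and its highest level was 4.71 CPM.
Among the ATF4 targets, Chac1 in iBAT had 20.4, 5.76 and 15.1 CPM at day 0, 4.60, 2.08, 3.40 and 8.16 at day 2, and 14.9, 7.35 and 1.87 at day 4, with overlap at both cold times. Its changes were -1.49 (SE 0.79, edgeR adjusted p = 0.464) and -0.59 (SE 0.82, edgeR adjusted p = 0.919). The changes of Trib3 in iBAT were -0.84 (SE 0.53, edgeR adjusted p = 0.54) and -0.49 (SE 0.57, edgeR adjusted p = 0.902). Ddit3, which encodes the stress factor CHOP, was below the filter throughout, with at most 20 counts in a library.

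Within groups, some members swung widely and others much less. Spread was the SD of log2 CPM about group means, pooled over groups, after a constant was added to each CPM. That constant shrinks the spread of low genes. The SD was 1.67 for Asns, 1.49 for Hsp90b1, 1.44 for Selenos, 1.35 for Xbp1 and 1.34 for Pdia3. It was 0.38 for both Atf6 and Eif2ak3 and 0.41 for Edem1. The median was 0.651 over the 28 members and 0.704 over all 11041 genes of the joint fit.
Hsp90b1 in iWAT had 1471, 816, 1259 and 91.8 CPM at day 0, 175, 757 and 155 at day 2, and 70.4, 811, 624, 838 and 444 at day 4. Its low libraries occurred on every day. Asns in iWAT ran opposite at day 0, with 31.5, 17.1, 10.1 and 170 CPM in the same order of libraries. The library with the highest Hsp90b1 in its group had the lowest Asns in 6 of 9 groups and the lowest Calr in 6 of 9, and it had the highest Pdia3 in 5 of 9. Calr and Pdia6, which share the ERSE letters with Hsp90b1, were highest in the same library in 3 of 9 groups. Only a few chosen pairs were counted, with no share over other genes. In groups this small such matches are frequent by chance.
A score places each library on the main axis of differences within groups, found in the other 2 depots. The main axis found in a depot's own libraries held 39.6% to 50.2% of its within-group variance. The share held by the axis from the other 2 depots was not computed. The score was taken from deviations from the depot mean, so it can carry day differences too. In the library with the top score of its group, Hsp90b1 was the highest in 7 of 9 groups and Pdia3, P4hb and Atf6 in 6 of 9. P4hb was the lowest in the other 3 groups and Atf6 in 1. In the same libraries Ero1l was the lowest in 8 of 9 groups, Asns and Hyou1 in 7 and Atf4 in 6. The members named here were among the genes that made the score, and its direction was set by Cox8b, one of the brown adipocyte genes. The same counts were not computed over all genes, so they do not show a trait of ER genes. They are descriptions. What sets the axis was not tested.

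**Figure D4:**
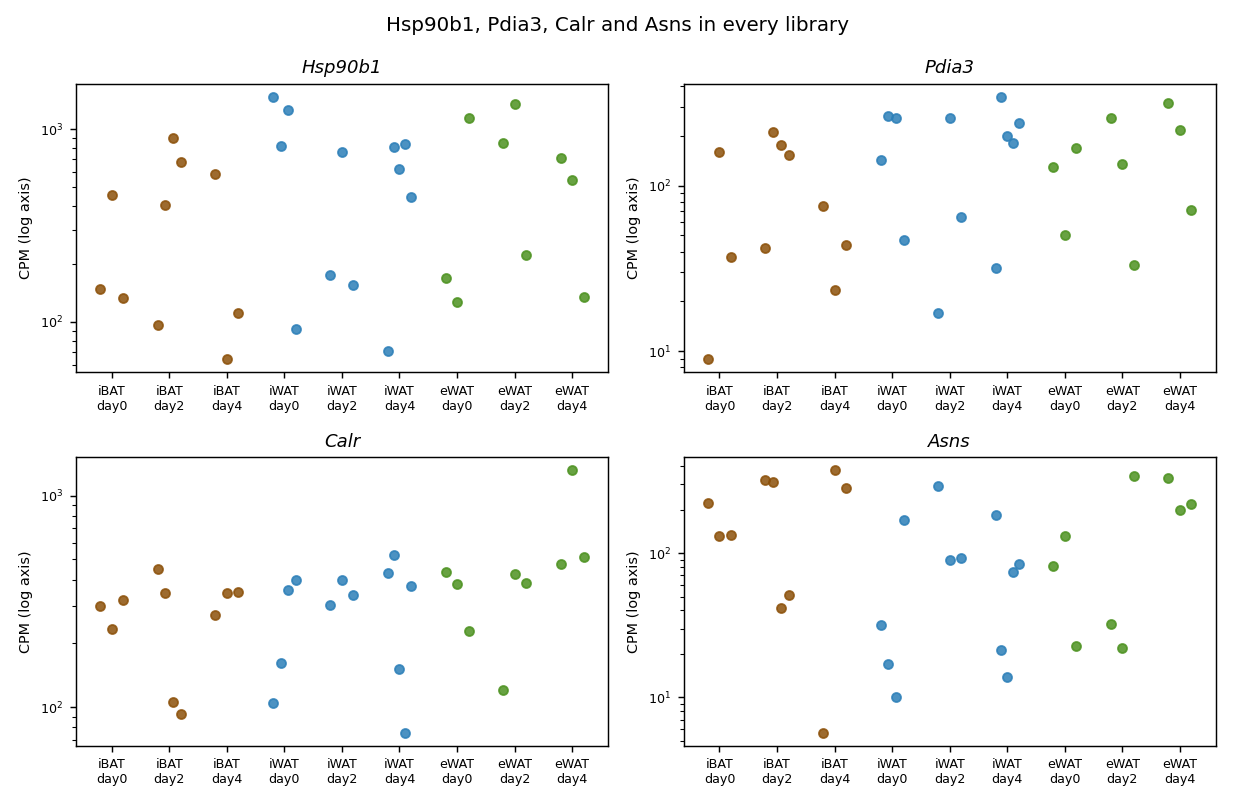
Level in CPM (log axes) of Hsp90b1, Pdia3, Calr and Asns in each library (points) of the 9 groups. Hsp90b1 spans over 10 times in iWAT at days 0 and 4, and Asns is highest at iWAT day 0 in the library where Hsp90b1 is lowest.

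Other genes of the same pathways, in 6 lists of which 107 genes had a row, gave no call with edgeR in the comparisons of days within a depot. Against day 0, 29 of 554 gene tests had an unadjusted p under 0.05 and a positive change, and 8 a negative one, together 6.68%. The share of all genes lay between 1.06% and 12.4% in the same 6 comparisons. Heat shock proteins gave 12 of the 29. DESeq2 was not summed over these lists. Of 15 cytosolic and mitochondrial heat shock proteins, 13 had a positive change in iBAT at day 2, beside 50.5% of all genes. The median was 1.03, against 0.01 over all genes. Of the 15, 5 had an unadjusted p under 0.05, beside 12.4% of all genes. The lowest adjusted p of these 15 in edgeR was 0.156. Most of the 15 were also positive elsewhere: 14 in iBAT at day 4 (median 0.70), and 13 and 14 in iWAT at days 2 and 4 (0.59 and 0.61). In eWAT, 13 were positive at day 2 (median 0.29) and 9 at day 4 (0.05). Of all genes, 45.7% to 50.5% had a positive change in these 6 comparisons.
At day 0 between depots, 4 of 16 further ATF4 targets were called in iBAT against iWAT, beside 17.9% of all genes tested. The cystine transporter Slc7a11 was lower, at -5.63 on the log2 scale (SE 1.15, edgeR adjusted p = 0.001), with at most 4 counts in an iBAT library, and kept its call in all 13 alternatives. The amino acid transporter Slc7a5 was lower too, and the transcription factor Cebpb and the glycyl-tRNA ligase Gars were higher. So further ATF4 targets were called in both directions, while Chac1 and Trib3 were both higher. Of the heat shock proteins, 5 of 15 were called higher in iBAT against iWAT and 0 lower, beside 8.12% and 9.77% of all genes. Hspb1, a small heat shock protein, was higher by 2.16 (SE 0.41, edgeR adjusted p = 5.38e-04) and kept its call in all 13 alternatives. Hspa1b, an inducible cytosolic chaperone, was higher by 3.47 (SE 0.92, edgeR adjusted p = 0.00932), and its call was lost without iBAT518 (edgeR adjusted p = 0.129). The 24 folding enzymes tested gave Lman1, a cargo receptor, as higher and Uggt1, which checks glycoprotein folding, as lower. Of 20 translocon, signal peptidase and N-glycosylation genes, 1 was called, the signal peptidase subunit Spcs2, which was lower. The calls of Slc7a5, Cebpb, Gars, Lman1, Uggt1 and Spcs2 each depended on single libraries, and each was lost when 1 or more of iBAT516, iBAT517, iBAT518, iWAT516, iWAT517 and iWAT518 was left out.
In iBAT against eWAT, Cebpb and the mitochondrial chaperone Trap1 were called higher, and Slc7a5, Phgdh, Stc2 and the ER reductase Dnajc10 lower. By list these were 1 higher and 3 lower of 16 ATF4 targets, 1 of 15 heat shock proteins and 1 of 24 folding enzymes. The share of all genes called was 10.3%. In iWAT against eWAT, Hspa1b was called lower, 1 of 15 heat shock proteins, beside 7.82% of all genes. Of the 12 or 13 alternatives for each of these 7 calls, between 4 and 9 kept it, and each was lost without eWAT516 or eWAT518, among others. No further degradation gene of 16 and no further sensor of 9 was called by edgeR between iBAT and iWAT, beside 17.9% of all genes. There 1 and 2 had an unadjusted p under 0.05, beside 32.0% of all genes. These differences stood beside the muscle, immediate early, lymphocyte and macrophage levels given for Chac1 and Trib3, and their part was not tested.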

How the data were processed

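Total RNA of each fat sample (1 µg) was sequenced, per the labels' protocols. The authors deposited raw counts per RefSeq transcript accession, 1 table per depot. Cutadapt, BWA and the mm10 build are listed, with no role, per the submitters' processing notes. The counting step, tool versions, strand use and duplicate handling are not given in the sources used here. All 31 columns matched a sample's title. A missing cell was taken as a count of 0.

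Accessions were matched to symbols through RefSeq (17026) and GENCODE (109), and 199 of 17334 features had none. Ero1l was found under its newer name. Counts were tested in R 4.3.3 with edgeR 4.0.16 (TMM, filterByExpr with minimum count 10 and minimum total 15, robust quasi-likelihood F-tests, 1 mean per day within a depot). Depots and changes between depots were tested in 1 fit of all 31 libraries with 1 mean per group. P-values were adjusted over all genes of a comparison. The steps were tested on simulated data.

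Alternatives were other scalings, no filter, DESeq2 1.42.0, the library score as a covariate, the label number as a block, and each library left out. The members, lists, score and tests were chosen with earlier results of these data known. By rule, the text names members called in any comparison, Hspa5 (no row), Xbp1, Atf4 and Ddit3 always, 1 or 2 further examples per role nearest to the threshold, and up to 3 called genes of each pathway list in each cold comparison. The other members given with values, the pathway genes named between depots and the library eWAT551 were chosen after their values were seen. Counts come from PCR copies with no molecular identifiers stated, so counts of reads may overstate independent molecules.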

Additional observations from a re-analysis of the deposited data

Results flagged for a closer look

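Within groups of 4 or 5 libraries, a library was singled out where its gap to the nearest other was large against the range of the group (Dixon's 95% critical value, for members with at least 10 counts in some library of the group). Of 78 sets of a gene and a group, 7 were singled out. The chance rate of about 1 in 20 holds for normally distributed values. The rule was applied to CPM without logs, where high values stretch the range, so the 7 cannot be weighed against that rate. Xbp1 had 533.8 CPM in iWAT548, against 16.6 to 35.5 CPM in the other day 4 libraries of iWAT. Selenos, the selenoprotein of ER-associated degradation, had 31.5 CPM in the same library, against 0.268 to 3.88 CPM. Selenos also stood out in iWAT516 at day 0 with 38.5 CPM, against 1.18 to 7.55 CPM, and in iBAT532 at day 2 with 13.0 CPM, against 0.486 to 2.08 CPM. In iWAT522 at day 0, Asns had 170 CPM, against 10.1 to 31.5 CPM, and Eif2ak3 had 9.75 CPM, against 23.7 to 25.8 CPM. Sec61b had 42.1 CPM in iWAT551 at day 4, against 12.9 to 17.7 CPM. The groups of 3 libraries, which include all of eWAT, were not examined in this way.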

How the results depend on the processing

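The count of 0 called members stayed at 0 in the cold comparisons under the other scalings, no filter, the library score, the block and each left-out library, except that DESeq2 called 1 (Xbp1) in iBAT at day 2. Over all genes DESeq2 called 270 there, where edgeR called 13. In iBAT against iWAT at day 0 the 2 called members became 1 (Chac1) with no filter and with the library score, and 1 to 2 with a library left out. In iBAT against eWAT the 1 became 2 with the plain library size (P4hb and Pdia4), 0 with no filter, 2 with DESeq2 (Chac1 and Pdia4) and 0 to 1 with a library left out. With CPM of the plain total count, the summed member level was 2670 in iBAT at day 0, 2269 at day 2 and 2252 at day 4, and 4156 in eWAT at day 0, where the TMM-scaled levels were 2989, 2921, 2813 and 3432. In iBAT against iWAT, DESeq2 called 3 members (Pdia4 added). For the 51 single-gene values printed with a test or by name, 602 of 715 alternatives kept direction and side of the threshold, 84 lost the call, 6 gained it and 23 turned the direction. No value that turned was called. With libraries left out, the change ranged from -0.63 to 0.89 for Creld2 and -0.33 to 1.78 for Hyou1 (eWAT day 4), -1.08 to 1.83 for Xbp1 (iWAT day 4) and from -0.766 to 0.051 for Trib3 (iBAT day 4). For Atf4 it ranged -0.29 to 0.21 (iBAT day 2), -0.12 to 0.57 (iBAT day 4), -0.48 to 0.25 (iWAT day 2), -0.11 to 0.23 (iWAT day 4), -0.21 to 0.10 (eWAT day 4). Atf4 also turned with the library score (0.44, iBAT day 2) and the plain library size (-0.046, iBAT day 4, and -0.13, iWAT day 4). Where a value moved, the cause was not tested unless fewer genes or libraries entered the fit.

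Label numbers recur between depots, not within one. Over 23 pairs of libraries with the same number, the correlation of their deviations from group means was over 0.1 in 6 (median -0.075, range -0.439 to 0.364), and 3 of 28 libraries correlated best with their own number. The numbers are therefore not shown to pair the samples. With the number as a block, 1 member (Chac1) was called in iBAT against iWAT, where Trib3 had an edgeR adjusted p of 0.135, 1 (Chac1) in iBAT against eWAT and 0 in iWAT against eWAT, and 0 in the 6 comparisons of change between depots. No paired analysis was possible within a depot because no number recurs there.

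Few libraries per group and a wide spread between them limit what these data can show. The fits had a common biological coefficient of variation of 0.538 to 0.587. Low members such as Chac1, Ern1 and Ddit3 rest on few counts per library.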
